A study of Homo sapiens with 24 samples.

Results

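Axon guidance ligands and receptors were followed at the RNA level in human LUHMES neurons treated with a vehicle or with 1 of 7 toxicants. The genes were taken by name: semaphorins, plexins, neuropilins, ephrins, EPH receptors, slits, ROBO receptors, netrins and the netrin receptors DCC, neogenin and UNC5, with NDNF and ALCAM. Of 58051 genes in the count matrix, 87 names matched, 9 antisense names and 5 genes under 50 reads over the 24 libraries were left out, and 73 genes remained. They were 20 semaphorins, 11 plexins and neuropilins, 8 ephrins, 13 EPH receptors, 7 slit and ROBO genes, 12 genes named like netrins or their receptors, and NDNF and ALCAM. The name rule also took UNC50, which encodes a Golgi protein and no netrin receptor, and UNC5CL, a UNC5-like protein that is not one of the netrin-binding receptors.

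LUHMES is an immortalised human mesencephalic precursor line, so all replicates came from 1 line and not from separate donors. The cultures were differentiated toward dopaminergic neurons with tetracycline, cAMP and GDNF, and every group was exposed for 6 h. The vehicle group received 1% DMSO, which was matched to the solvent in the toxicant wells. The toxicants were MS275 at 5 µM, an inhibitor of class I histone deacetylases, paraquat at 5 µM, a bipyridinium herbicide, MPP at 5 µM and rotenone at 1 µM, both inhibitors of mitochondrial complex I, ziram at 2 µM, a zinc dithiocarbamate fungicide, 6-HD at 1 µM, a name that the labels do not expand, and methylmercury at 0.5 µM. Each group had 3 libraries of polyadenylated RNA, which the labels call biological samples. The p-values below set a difference between groups against the spread between libraries within groups. Except where a fit on fewer libraries is named, that spread was estimated from all 24 libraries.

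Growth cones read these proteins as attractive or repulsive signals. Semaphorins bind plexins, with neuropilins as co-receptors for the secreted class 3 members; ephrins are tethered to the membrane and bind EPH receptor tyrosine kinases on the opposing cell; slits repel through ROBO receptors; netrins attract through DCC and neogenin and repel through UNC5 receptors. In the midbrain, these families help to steer dopaminergic axons toward the forebrain, and several of them also act in blood vessels.

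In the vehicle, the level was read as counts per megaread (CPM) of the scaled library total, divided by the kilobases of annotated exon so that genes of different length can be compared. On this scale of level per kilobase, 20 members lay at 10 or above and 20 lay under 1. The highest was ALCAM, an adhesion molecule of the immunoglobulin family that growing axons use for fasciculation, at 39.9 ± 3.0 (SD, n = 3), next to the slit receptor ROBO2 at 38.6 ± 1.3. Their 3 libraries overlapped, with 36.5 to 42.1 for ALCAM and 37.8 to 40.1 for ROBO2. The slit receptor ROBO1 followed at 33.8 ± 0.61, the transmembrane semaphorin SEMA6D at 32.0 ± 0.72 and the B-type ephrin EFNB2 at 28.9 ± 0.14. The leading plexin was PLXNB2, the receptor of class 4 semaphorins, at 25.0 ± 0.26. The leading EPH receptor was EPHB2 at 11.7 ± 0.56, and the leading netrin receptor was DCC at 20.1 ± 1.2.

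All 3 B ephrins stood above every EPH receptor in level per kilobase, with EFNB1 at 26.5 ± 2.0 and EFNB3 at 23 ± 0.58 beside EFNB2. ROBO1 and ROBO2 stood above all 3 slits, whereas ROBO3 was at 0.927 ± 0.17 and ROBO4 near 0. SLIT1 was at 8.86 ± 0.42, SLIT2 at 0.527 ± 0.034 and SLIT3 close to 0. Secreted netrins were low, with NTN3 at 2.69 ± 0.88, NTN1 at 0.817 ± 0.12 and NTN5 at 0.52 ± 0.036. Of the neuropilins, NRP2 was at 8.70 ± 0.25 and NRP1 at 0.344 ± 0.042. These values order the genes within the vehicle libraries and carry no test.

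**Figure D1:**
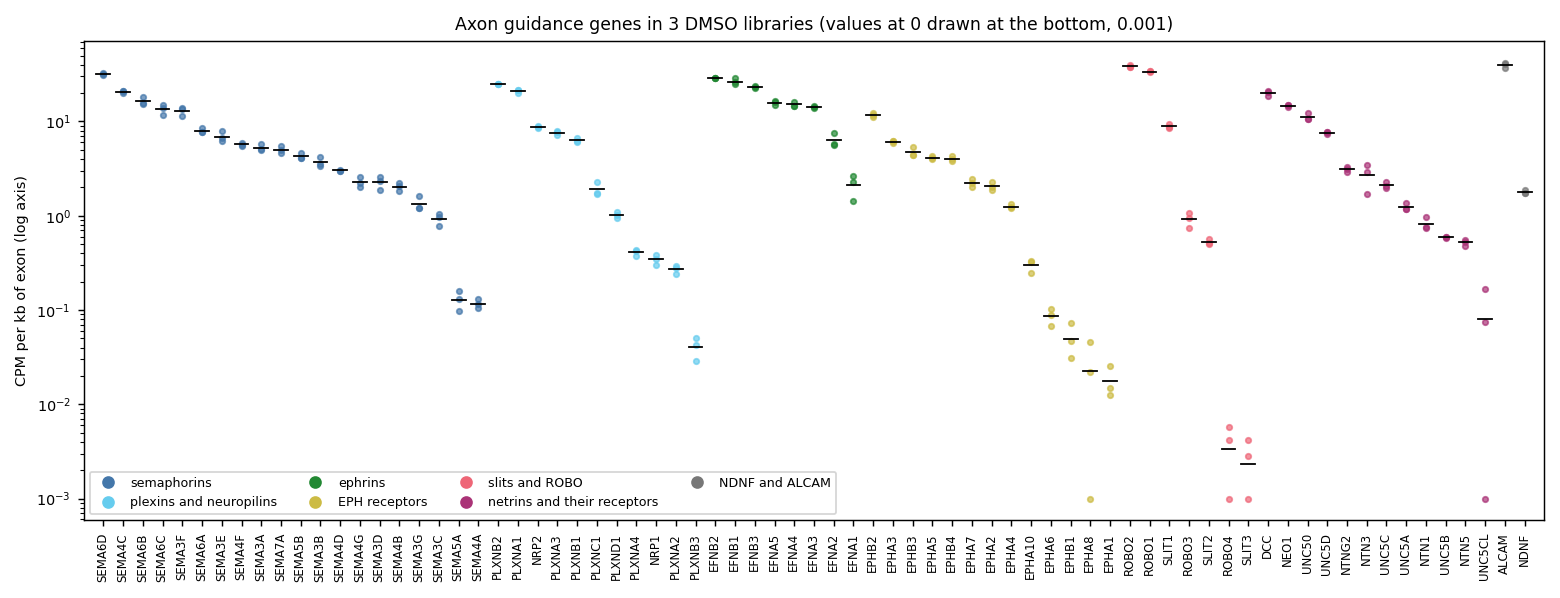
Level per kilobase of exon of the 73 members in the 3 DMSO libraries, on a log axis; points are libraries, black bars are means, and colours mark families. ALCAM, ROBO2, ROBO1 and SEMA6D lie between 31.3 and 42.1, whereas EPHA1, ROBO4 and SLIT3 lie near 0.

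Library totals ran from 9.69 to 46.9 megareads, no pair of libraries was identical, and 18852 genes passed the expression filter. Of the members, 70 passed it; EPHA1 (60 reads over 24 libraries), ROBO4 (76 reads) and SLIT3 (60 reads) did not. Pan-neuronal markers summed to 7300 to 8610 CPM in the vehicle libraries. Of the 12 dopaminergic markers, the dopamine transporter gene SLC6A3 was at 636 CPM and tyrosine hydroxylase at 50.8 CPM, but FOXA2 had 0 reads there, ALDH1A1 and LMX1B were near 0 and SLC18A2 was at 0.32 CPM. The RNA comes from whole cultures, in which fewer cells of a type and less RNA per cell cannot be told apart. Exons of 27 members share bases with another gene, for 7 of them over 10% of the exon bases, and whether the authors' counting used strand is not given in the sources used here.

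Promoter sequence is shown for 4 members that were called below, chosen after their values were seen: EPHA2 and EFNB2, which were higher under MS275, EFNA3, which was lower, and PLXNA2, which was higher under MS275 and ziram. The stretches lie directly upstream of the RefSeq start in GRCh38.p14 and are written 5′ to 3′ on the gene's strand, without annotated exon bases. Capitals mark matches on either strand to the GC box (GGGCGG), the TATA box (TATAAA), the cAMP response element (TGACGTCA) and the metal response element (TGCGCNC or TGCACNC, which do not overlap the other motifs in these stretches). EPHA2 is at chr1:16156088-16156319 on the minus strand and ends 19 bases before the start. EFNB2 is at chr13:106535663-106535912 on the minus strand, EFNA3 at chr1:155078587-155078836 on the plus strand and PLXNA2 at chr1:208244385-208244634 on the minus strand, each up to the start.
EPHA2: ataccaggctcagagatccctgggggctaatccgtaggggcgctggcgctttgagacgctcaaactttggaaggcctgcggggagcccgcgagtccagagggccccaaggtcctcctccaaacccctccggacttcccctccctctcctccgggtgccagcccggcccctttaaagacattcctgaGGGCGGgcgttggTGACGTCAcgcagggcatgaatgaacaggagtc
EFNB2: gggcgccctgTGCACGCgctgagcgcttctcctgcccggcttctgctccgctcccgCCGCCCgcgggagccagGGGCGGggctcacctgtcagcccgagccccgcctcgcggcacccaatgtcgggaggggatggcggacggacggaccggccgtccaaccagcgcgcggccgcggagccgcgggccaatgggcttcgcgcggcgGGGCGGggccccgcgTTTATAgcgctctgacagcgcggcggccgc
EFNA3: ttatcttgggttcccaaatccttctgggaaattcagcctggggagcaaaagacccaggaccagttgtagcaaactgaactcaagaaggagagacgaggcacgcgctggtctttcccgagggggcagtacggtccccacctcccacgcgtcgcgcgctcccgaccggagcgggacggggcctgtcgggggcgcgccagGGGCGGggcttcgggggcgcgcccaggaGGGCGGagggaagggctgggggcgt
PLXNA2: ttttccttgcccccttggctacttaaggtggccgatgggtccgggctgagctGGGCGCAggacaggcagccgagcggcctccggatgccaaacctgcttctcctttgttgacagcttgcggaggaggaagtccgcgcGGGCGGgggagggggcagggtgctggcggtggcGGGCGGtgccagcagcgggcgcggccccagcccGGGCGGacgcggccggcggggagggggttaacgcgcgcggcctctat
EPHA2 carried a GC box 64 bases upstream of the start and a cAMP response element 51 bases upstream. EFNB2 carried 3 GC boxes, a TATA box on the opposite strand 30 bases upstream and a metal response element 240 bases upstream. EFNA3 carried 2 GC boxes, and PLXNA2 carried 3 with a metal response element 198 bases upstream. The RefSeq table held a promoter for 61 of the 73 members. A GC box lay in the 250 bases upstream in 75.4% of these, against 42.3% of all 27305 promoters and 56.0% of the 15843 promoters of coding genes in the table. The cAMP response element was in 3.28% of member promoters and 1.77% of all, the TATA box in 1.64% and 11.1%, the metal response element as TGCGCNC in 26.2% and 16.9%, and as TGCACNC in 11.5% and 9.73%. In promoters of coding genes, the shares were 2.32%, 9.23%, 21.9% and 9.78% in the same order. Split by the RNA result under MS275, the GC box was in 23 of 31 promoters of members that were higher, 7 of 8 that were lower and 14 of 19 that were not called. A match is a description of letters and shows neither binding nor a cause.

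Most calls came under MS275. Of 70 tested members, 46 differed from the vehicle in edgeR's quasi-likelihood test with a Benjamini-Hochberg adjusted p under 0.05 over all genes, against 43.2% of all tested genes. The 37 higher members were 52.9% of those tested, where 20.1% of all genes were higher, and the 9 lower members were 12.9%, where 23% of all genes were lower. At 2-fold or more, 16 members were higher and 1 was lower, against 10.7% and 2.4% of all genes. The median log2 fold change was 0.478 over the members and 0.0358 over all genes. By role, 20 of 34 ligands were higher and 6 lower, and 16 of 32 receptors were higher and 2 lower. Among the called members, libraries of the treatment and the vehicle overlapped for SEMA3E and SEMA6B.

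Among the ligands, secreted class 3 semaphorins rose in 6 of 7 cases, where 20.1% of all genes were higher. SEMA3G, a class 3 semaphorin known from endothelial cells, was at 6.05, 8.12 and 6.00 CPM in the 3 vehicle libraries and at 27.3, 26.2 and 21.9 CPM under MS275. The groups were far apart, and the log2 fold change was 1.90 (SE 0.18, edgeR adjusted p = 1.31e-09). SEMA3C, a cue for cortical and cardiac development, went from 5.83 ± 0.82 to 18.7 ± 1.3 CPM, a log2 fold change of 1.69 (SE 0.18, edgeR adjusted p = 1.17e-08). SEMA3B rose by 0.75, SEMA3F by 0.46, the growth cone collapsing factor SEMA3A by 0.44 and SEMA3E by 0.31 on the log2 scale. SEMA3D was not called, at a log2 fold change of -0.23. The SEMA3F call ended without DMSO replicate 3 (edgeR adjusted p = 0.0503). The SEMA3E call ended without DMSO replicate 2 (0.0944), DMSO replicate 3 (0.153), MS275 replicate 2 (0.0722) or MS275 replicate 3 (0.192).

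Membrane-bound semaphorins moved in both directions. In class 4, SEMA4D and SEMA4B rose by 0.58 and 0.56 on the log2 scale, SEMA4C and SEMA4F fell by 0.43 and 0.48, and SEMA4A and SEMA4G were not called. In class 6, SEMA6A rose by 0.53 and SEMA6B by 0.45, whereas SEMA6C fell by 0.62 and SEMA6D, the semaphorin with the highest vehicle level, fell by 0.23. SEMA7A, a lipid-anchored semaphorin that promotes axon growth through integrins, more than doubled, from 20.7, 17.8 and 18.9 CPM to 42.4, 44.0 and 35.1 CPM. Both class 5 genes rose, SEMA5B by 0.60 and SEMA5A, at 1.55 ± 0.38 CPM in the vehicle, by 1.09. The SEMA5A call ended without any 1 of the 6 libraries, with edgeR adjusted p up to 0.156 without DMSO replicate 2. The SEMA6B call ended without DMSO replicate 1 (0.0961) or 3 (0.0769) or MS275 replicate 1 (0.125) or 2 (0.0782). The SEMA6D call ended without DMSO replicate 2 (0.0578) or 3 (0.0812) or MS275 replicate 1 (0.194) or 2 (0.067), and with the median-ratio scaling of DESeq2 in edgeR (0.0747). It also ended with MS275 and the vehicle fitted alone in edgeR (0.0771) and in DESeq2 itself (adjusted p = 0.0601).

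The ephrins divided within each type. EFNB2, a ligand of EPHB receptors and EPHA4, was at 146, 144 and 145 CPM in the vehicle and at 364, 383 and 362 CPM under MS275. Its log2 fold change of 1.35 (SE 0.08) had an edgeR adjusted p of 2.02e-13. EFNB1 rose from 87.9 ± 6.5 to 195 ± 31.4 CPM, and EFNA1 from 5.38 ± 1.60 to 8.97 ± 1.95 CPM. EFNA3, an A-type ephrin anchored to the membrane by a lipid, was the only member that fell at least 2-fold. It was at 27.9, 27.4 and 26.3 CPM in the vehicle and at 7.64, 9.40 and 7.81 CPM under MS275, which gave a log2 fold change of -1.70 (SE 0.11, edgeR adjusted p = 7.47e-13). EFNB3 fell by 0.24, and EFNA2, EFNA4 and EFNA5 were not called. Of the exon bases of EFNA3, 44.7% are shared with AL691442.1 on the same strand, and of those of EFNB2, 26.2% with AL138689.2 on the opposite strand, so part of their reads may have been lost to or gained from these genes. The EFNA1 call ended without DMSO replicate 1 (edgeR adjusted p = 0.0587) or MS275 replicate 2 (0.0523). The EFNB3 call ended without DMSO replicate 2 (0.142) or 3 (0.112), without MS275 replicate 1 (0.082), 2 (0.0782) or 3 (0.0909), and with the median-ratio scaling (0.111). In edgeR it also ended with library totals as the only scaling (0.0558), no filter on low counts (0.0526) or a filter of 1 CPM in 3 libraries (0.0798). DESeq2 did not call EFNB3 either (adjusted p = 0.0935).

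Slits and netrins rose where they were called. SLIT1, a ligand of ROBO receptors made by neurons, went from 80.7 ± 3.8 to 152 ± 8.1 CPM, a log2 fold change of 0.92 (SE 0.10, edgeR adjusted p = 1.42e-08). SLIT2 rose by 0.67 from 5.12 ± 0.33 CPM, and NTN1, the classical netrin, by 0.71 from 5.22 ± 0.79 CPM. NTN5 rose by 1.24 from 1.62 ± 0.11 CPM, and NTN3 was not called. NTNG2, a netrin relative that is anchored to the membrane and does not bind DCC, rose from 24.4 ± 1.4 to 45.4 ± 5.3 CPM. The SLIT2 call ended without DMSO replicate 1 (0.0714) or 3 (0.0817) or MS275 replicate 2 (0.0592) or 3 (0.17), and the NTN1 call without DMSO replicate 2 (0.0923) or 3 (0.0864) or MS275 replicate 1 (0.0802) or 2 (0.0921), as edgeR adjusted p. UNC50 fell by 0.38, a call that ended without DMSO replicate 2 (0.0569) or 3 (0.186) or MS275 replicate 1 (0.0544) or 3 (0.158), and with the median-ratio scaling (0.0685). It also ended with a filter of 1 CPM in 3 libraries in edgeR (0.0561) and in DESeq2 (adjusted p = 0.0603). NDNF, a secreted neurotrophic glycoprotein, was at 6.12, 6.62 and 6.12 CPM in the vehicle and at 3.78, 3.93 and 6.30 CPM under MS275, where MS275 replicate 3 lay among the vehicle libraries and the gene was not called.

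Of the receptors, EPH kinases and UNC5 receptors held the largest increases. EPHA2, an EPH kinase that binds A ephrins, is at chr1:16124337-16156087 (GRCh38, GENCODE 29). It was at 8.47, 7.71 and 9.40 CPM in the vehicle and at 59.4, 57.3 and 44.2 CPM under MS275. The lowest treated library was several times the highest vehicle library, and the fold change was 6.28 (log2 2.65, SE 0.19, edgeR adjusted p = 5.37e-12). EPHA4, a receptor of both ephrin types, was at 9.04, 9.94 and 9.40 CPM and at 27.4, 34.3 and 29.9 CPM, a 3.23-fold increase (log2 1.69, SE 0.15, edgeR adjusted p = 1.76e-10). EPHB3, a kinase for B ephrins, had 3 close MS275 libraries at 60, 58.2 and 59.5 CPM, against 19.8, 24.4 and 20 CPM in the vehicle. EPHA7, an A-type receptor with roles in axon repulsion, was at 38.1, 40.5 and 48.2 CPM, against 16.6, 18.2 and 15.1 CPM. On the log2 scale EPHB3 rose by 1.47, EPHA7 by 1.34, EPHA3 by 0.95 and EPHB2 by 0.49, whereas EPHB4 fell by 0.56. EPHA8 was also called higher, but on 62 reads over the MS275 libraries against 10 over the vehicle libraries. The EPHA8 call ended without any of the 6 libraries except MS275 replicate 3, with edgeR adjusted p from 0.0535 without DMSO replicate 2 to 0.15 without DMSO replicate 1. In edgeR it also ended with the replicate number as a block (adjusted p = 0.057) and with no filter on low counts (0.0605). EPHA5, EPHA6, EPHA10 and EPHB1 were not called.

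UNC5B, a netrin receptor that mediates repulsion, is at chr10:71212570-71302864. It was at 4.05, 4.00 and 4.08 CPM in the vehicle and at 27.9, 25.3 and 20.7 CPM under MS275, a 6.10-fold increase (log2 2.61, SE 0.20, edgeR adjusted p = 1.69e-11). UNC5A rose from 5.43 ± 0.50 to 16 ± 2.0 CPM (log2 1.56) and UNC5C from 22.6 ± 1.6 to 35.1 ± 2.3 CPM (log2 0.64). The UNC5 receptor with the highest vehicle level, UNC5D, was not called in the main fit, at a log2 fold change of 0.25. DESeq2 called it higher (adjusted p = 0.0314). In edgeR it was called with the median-ratio scaling (0.0355), a filter of 1 CPM in 3 libraries (0.0391) and the 2 groups fitted alone (0.047). Without MS275 replicate 1 it was also called (edgeR adjusted p = 0.0172). The attractive netrin receptor DCC was called at 0.37, with 245, 274 and 272 CPM in the vehicle and 292, 295 and 441 CPM under MS275. The DCC call rested on MS275 replicate 3: without it the log2 fold change was 0.15 (edgeR adjusted p = 0.306), and without DMSO replicate 1 it was 0.31 (0.0781). Neogenin (NEO1) was not called in the main fit, at 0.14. DESeq2 called it (adjusted p = 0.0285), as did edgeR with the median-ratio scaling (0.0478) or a filter of 1 CPM in 3 libraries (0.0487).

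Of 11 plexins and neuropilins, 4 were higher (20.1% of all genes) and 1 was lower (23%), so that 5 of 11 were called beside 43.2% of all genes. PLXND1, the receptor of SEMA3E that acts in vessels and neurons, rose from 9.91 ± 0.70 to 27.2 ± 2.9 CPM (log2 1.46, SE 0.21, edgeR adjusted p = 1.68e-06). PLXNA2, a receptor of class 3 and class 6 semaphorins, was at 3.34, 4.00 and 3.84 CPM and at 9.59, 9.40 and 10.4 CPM, a log2 fold change of 1.38 (SE 0.21, edgeR adjusted p = 4.27e-06). PLXNA1 rose by 0.74 and the neuropilin NRP2 by 0.67, and PLXNC1, the receptor of SEMA7A, fell by 0.76. NRP1, PLXNA3, PLXNA4, PLXNB1, PLXNB2 and PLXNB3 were not called. ROBO2 rose by 0.30, a call that ended without MS275 replicate 3 (edgeR adjusted p = 0.074), and ROBO1 and ROBO3 were not called, at 0.14 and 0.13.

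**Figure D2:**
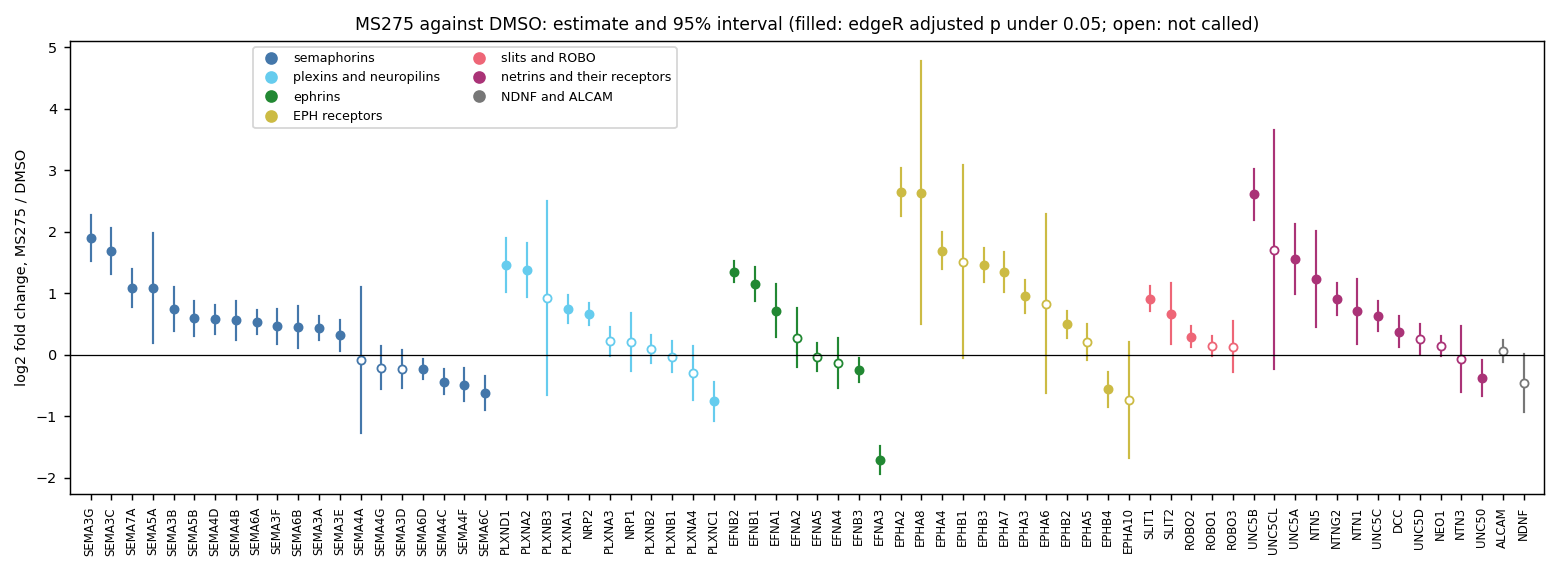
Log2 fold change of each tested member, MS275 against DMSO, with the 95% interval; filled points had an edgeR adjusted p under 0.05 and colours mark families. EPHA2 (2.65) and UNC5B (2.61) stand highest with narrow intervals, EPHA8 (2.63) has a wide one, and EFNA3 (-1.70) stands lowest.

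Markers of other cell types also moved under MS275, and their part in these results was not tested. The counts below stand beside 20.1% of all genes higher and 23% lower in this comparison. The 6 endothelial markers summed to 53.5 to 63.3 CPM in the vehicle and 182 to 326 CPM under MS275. Of the 4 that were tested, 3 were higher, and CLDN5 carried most of the sum (57.4 and 256 CPM), with KDR and TEK under 0.1 CPM in the vehicle. The 7 mesenchymal markers summed to 44.1 to 48.5 and 108 to 111 CPM, with 4 of 4 tested higher and TWIST1 at 0 reads in both groups. The 7 astrocyte markers summed to 33.1 to 37.9 and 54.4 to 57.5 CPM, with 5 of 6 tested higher and GFAP near 0 in both groups. The 9 neural precursor markers summed to 197 to 221 and 267 to 293 CPM, with 5 of 9 higher and 1 lower. The 7 oligodendrocyte-lineage markers summed to 174 to 191 and 184 to 215 CPM, with 3 of 5 tested higher and SOX10 and MOG at 0 reads in both groups. The 6 microglial or blood markers summed to 0.848 to 1.24 and 2.16 to 2.67 CPM, with 1 of 2 tested higher. The 12 dopaminergic markers summed to 758 to 864 and 1170 to 1370 CPM, with 7 of 10 tested higher and 1 lower. The 8 cycling markers summed to 396 to 448 and 342 to 399 CPM, with 5 lower and 0 higher. The pan-neuronal sum was 7300 to 8610 CPM in the vehicle and 7480 to 9010 CPM under MS275.

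The other 6 toxicants moved few members. MPP changed 7 of 70 (10.0%), against 10.8% of all genes, with 5 higher (5.77% of all genes were higher) and 2 lower (5.02%). EPHA2 showed the largest change, with 23.1, 25.7 and 18.1 CPM under MPP, all above the vehicle libraries at 7.71 to 9.40 CPM. Its fold change was 2.61 (log2 1.39, SE 0.19, edgeR adjusted p = 8.27e-06). UNC5B was at 7.75, 8.58 and 6.44 CPM, a log2 fold change of 0.91 (SE 0.20, edgeR adjusted p = 0.0027). NEO1, the neogenin receptor of netrins and repulsive guidance molecules, was at 120, 115 and 122 CPM in the vehicle and at 153, 171 and 155 CPM under MPP (log2 0.42, SE 0.08, edgeR adjusted p = 0.000521). These 3 calls held in every alternative that was run.

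The other 4 MPP calls depended on single libraries. EFNA1 was at 3.63, 5.74 and 6.77 CPM in the vehicle and at 10.1, 8.58 and 8.29 CPM under MPP (log2 0.71, edgeR adjusted p = 0.0239). The class 6 semaphorin SEMA6B was higher (log2 0.59), and SEMA3B (-0.59) and PLXNB2 (-0.38) were lower. Calls on EFNA1, SEMA6B, SEMA3B and PLXNB2 all ended without DMSO replicate 1 (edgeR adjusted p = 0.17, 0.0807, 0.161 and 0.0717) and without MPP replicate 2 (0.0564, 0.108, 0.101 and 0.0725). Without MPP replicate 3 the values were -0.44 for SEMA3B (0.195) and -0.28 for PLXNB2 (0.176). Without DMSO replicate 2, EFNA1 (0.0641), SEMA3B (0.0769) and PLXNB2 (0.0752) were lost; without DMSO replicate 3, SEMA6B (0.0679) and PLXNB2 (0.0568); and without MPP replicate 1, EFNA1 (0.113) and SEMA6B (0.057). EFNA1 was also lost with library totals as the only scaling (0.0557). Mesenchymal markers summed to 73.5 to 80.6 CPM under MPP, with 2 of 4 tested higher, where 5.77% of all genes were. The part of these markers was not tested.

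Ziram changed 6 of 70 members (8.57%), against 0.53% of all genes. The 3 higher members stood against 0.408% of all genes, and the 3 lower members against 0.122%. NDNF and ALCAM, 2 of the lower members, were selected by their own names and not by a family name. The members were chosen with earlier results of these data known, so these shares do not test the set. PLXNA2 was at 10.9, 9.37 and 10.9 CPM under ziram and at 3.34, 4.00 and 3.84 CPM in the vehicle. The groups were separate, with a fold change of 2.76 (log2 1.47, SE 0.21, edgeR adjusted p = 7.7e-05). UNC5B was at 9.70, 7.32 and 7.17 CPM (log2 0.99, SE 0.20, edgeR adjusted p = 0.00882). EPHA4 was at 19.6, 15.2 and 15.2 CPM, against 9.04 to 9.94 CPM in the vehicle (log2 0.81, SE 0.15, edgeR adjusted p = 0.00214). The EPHA4 call ended without ziram replicate 1 (0.0684). The UNC5B call ended without ziram replicate 1 (0.141), DMSO replicate 2 (0.0696) or DMSO replicate 3 (0.0537).

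The 3 members that fell under ziram were NDNF, ALCAM and UNC5D. NDNF is at chr4:121035613-121073021 and was the only 1 of the 18852 genes (0.0053%) that was both at least 2-fold lower and under the adjusted p threshold in this comparison. Its libraries were at 1.76, 2.71 and 2.28 CPM under ziram and at 6.12, 6.62 and 6.12 CPM in the vehicle, a log2 fold change of -1.47 (SE 0.24, edgeR adjusted p = 0.000496). ALCAM, the member with the highest vehicle level per kilobase, was at 302, 295 and 262 CPM in the vehicle and at 156, 204 and 191 CPM under ziram (log2 -0.64, SE 0.09, edgeR adjusted p = 4.19e-05). Calls on PLXNA2, NDNF and ALCAM held in every alternative that was run. UNC5D fell by 0.49 on the log2 scale (edgeR adjusted p = 0.0483), and this call ended without any 1 of the 6 libraries, with adjusted p from 0.0897 without ziram replicate 3 to 0.461 without ziram replicate 1. It also ended with the median-ratio scaling (0.0533) and with library totals as the only scaling (0.0863). The class 3 semaphorin receptor NRP1 was at 8.26, 6.33 and 7.88 CPM under ziram, above the vehicle libraries at 3.49 to 4.46 CPM, but was not called (log2 0.90, edgeR adjusted p = 0.0649). It was called by DESeq2 (adjusted p = 0.00993) and by limma-voom (0.0318).

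Rotenone changed 5 of 70 members (7.14%), against 5.52% of all genes, with 3 higher (2.76% of all genes) and 2 lower (2.76%). EPHA2 was at 16.5, 20.5 and 30.2 CPM, all above the vehicle libraries. Its log2 fold change of 1.38 (SE 0.19, edgeR adjusted p = 2.85e-05) was the call that held in every alternative that was run. EFNA1 was at 9.18, 9.76 and 8.94 CPM (log2 0.75, edgeR adjusted p = 0.0337) and NEO1 at 147, 136 and 159 CPM (log2 0.31, edgeR adjusted p = 0.0197). EPHA7 was lower (log2 -0.56, edgeR adjusted p = 0.048), as was SEMA4F (log2 -0.45, edgeR adjusted p = 0.0425), with SEMA4F libraries at 19.1, 32.2 and 28.1 CPM.

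These 4 rotenone calls depended on single libraries and on the fit. All 4 ended without DMSO replicate 1 (edgeR adjusted p = 0.181 for EFNA1, 0.0567 for NEO1, 0.103 for EPHA7 and 0.0823 for SEMA4F) and without DMSO replicate 2 (0.0919, 0.111, 0.196 and 0.156). Without DMSO replicate 3, NEO1 (0.0563), EPHA7 (0.0696) and SEMA4F (0.0955) were lost. Without rotenone replicate 1, SEMA4F was at -0.24 (0.229); without rotenone replicate 2, EPHA7 was at -0.37 (0.203) and EFNA1 at 0.71 (0.0777); and without rotenone replicate 3, NEO1 was at 0.25 (0.106), EFNA1 at 0.77 (0.0609) and SEMA4F at -0.51 (0.0515). Without rotenone replicate 1, 10 members and 1616 of all genes were called, against 1041 of all genes with every library. With rotenone and the vehicle fitted without the other groups, all 4 were lost (0.135 for EFNA1, 0.142 for NEO1, 0.195 for EPHA7 and 0.251 for SEMA4F). EPHA7 was also lost with the median-ratio scaling (0.0542) and in limma-voom (0.0925), EFNA1 in limma-voom (0.0549), and NEO1 with no filter on low counts (0.0772). Under rotenone, 2.76% of all genes were called in each direction. Neural precursor markers summed to 269 to 318 CPM under rotenone and 197 to 221 CPM in the vehicle, with 2 of 9 tested higher and 1 lower. Dopaminergic markers summed to 963 to 1310 CPM under rotenone and 758 to 864 CPM in the vehicle, with 1 of 10 tested higher and 1 lower; the part of either list in these results was not tested. SEMA6B was at 72.7, 120 and 122 CPM under rotenone, where replicate 1 lay among the vehicle libraries, and was not called (log2 0.52, edgeR adjusted p = 0.0601). DESeq2 called it (adjusted p = 0.0259). In edgeR it was called with the median-ratio scaling (0.0496), with no filter on low counts (0.0002) and without rotenone replicate 1 (0.00159).

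No member was called under paraquat, 6-HD or methylmercury by edgeR, DESeq2 or limma-voom. At an unadjusted p under 0.05 in edgeR, 0 members and 182 genes passed under paraquat, 5 members and 1074 genes under 6-HD, and 9 members and 2174 genes under methylmercury. After adjustment, edgeR called 0% of all genes under paraquat, 0.0106% under 6-HD and 0.286% under methylmercury. The lowest adjusted p of a member under methylmercury was 0.175, for SEMA4B at a log2 fold change of -0.52. The EPHA2 interval on the log2 scale was -0.76 to 0.06 under paraquat, -0.64 to 0.20 under 6-HD and -0.46 to 0.35 under methylmercury.

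**Figure D3:**
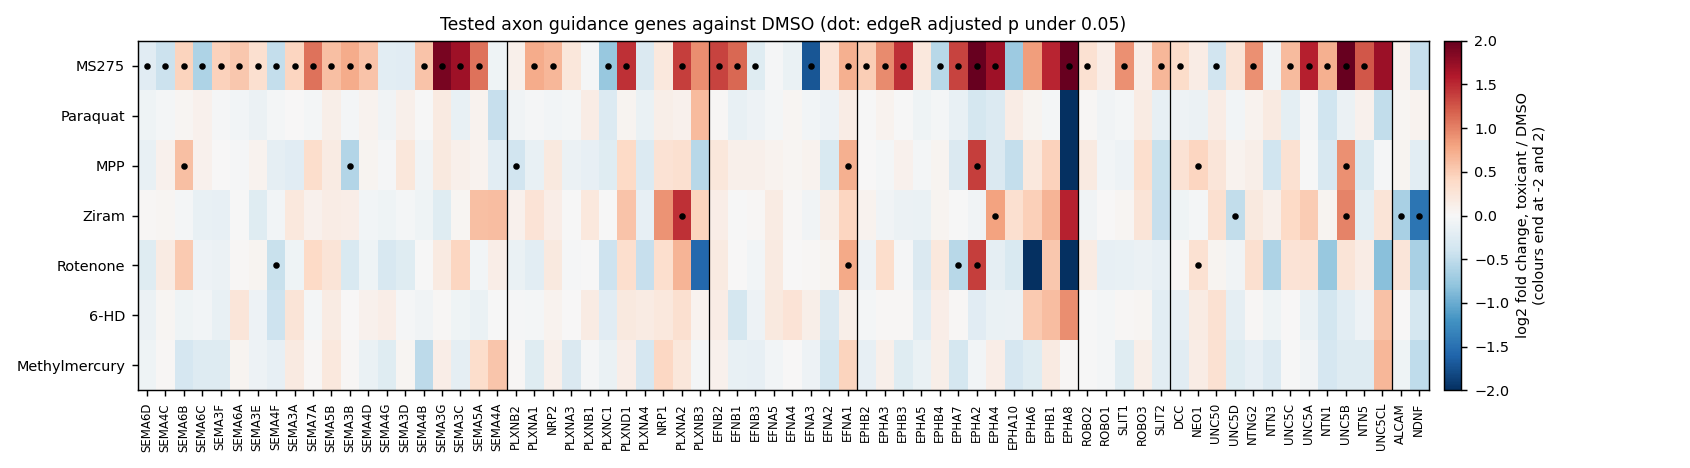
Log2 fold change of the 70 tested members against DMSO, a row for each toxicant and a column for each member; colours end at -2 and 2, and a dot marks an edgeR adjusted p under 0.05. Dots fill most of the MS275 row and are absent from the paraquat, 6-HD and methylmercury rows; the dark columns of EPHA8, EPHA6, PLXNB3 and UNC5CL rest on few reads (10, 41, 20 and 21 reads over the vehicle libraries).

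Seen by gene, 3 members were called against the vehicle under 3 toxicants, 7 under 2, 41 under 1 and 19 under none. Of all genes, 43.2% were called under MS275, 10.8% under MPP, 5.52% under rotenone and 0.53% under ziram. Repeated calls were not counted over all genes, so whether members recur more often was not tested. All 7 comparisons share the same 3 vehicle libraries, so that a vehicle library that is high or low moves all of them. EPHA2 and EFNA1, a receptor and its preferred ligand, were called under MS275, MPP and rotenone. EPHA2 was at 53.6 ± 8.2, 22.3 ± 3.9 and 22.4 ± 7.0 CPM in these groups and at 8.53 ± 0.85 CPM in the vehicle. In the other 4 groups, EPHA2 libraries ran from 6.15 CPM (paraquat) to 10.6 CPM (methylmercury). EFNA1 was at 8.97 ± 1.95, 8.99 ± 0.97 and 9.29 ± 0.42 CPM, and at 5.38 ± 1.60 CPM in the vehicle, where replicate 1 was lowest. UNC5B was called under MS275, MPP and ziram, and was at 4.53, 4.30 and 5.74 CPM under rotenone, where it was not called (log2 0.26, edgeR adjusted p = 0.545).

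The 19 members that were called in none of the 7 comparisons include some of the more abundant ones. ROBO1 ran from 310 to 476 CPM over the 24 libraries (median 362), with log2 fold changes between -0.17 and 0.14. EFNA5, an A ephrin that repels retinal and cortical axons, ran from 78.3 to 119 CPM, and its log2 fold changes lay between -0.05 and 0.20. PLXNA3 and PLXNB1, receptors of class 3 and class 4 semaphorins, ran from 65.3 to 116 CPM and from 46.2 to 78.3 CPM. The A-type receptor EPHA5 had a median of 38.7 CPM. Others were scarce: EPHA6, EPHB1, PLXNB3 and UNC5CL each had at least 1 library at 0 and none above 1.74 CPM. The lowest edgeR adjusted p among the 19 was 0.0649, for NRP1 under ziram.

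**Figure D4:**
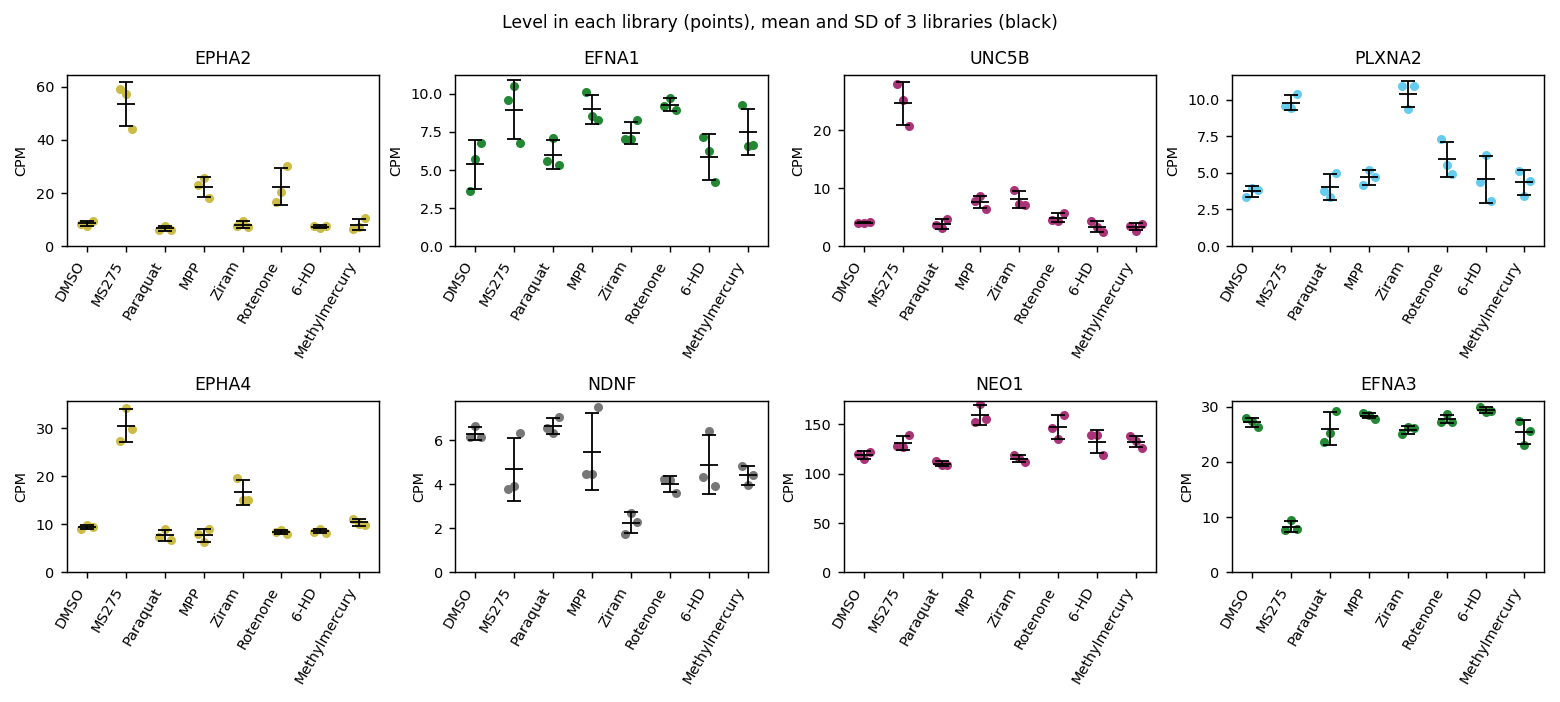
Level in CPM of 8 members in each of the 24 libraries (points), with the mean and SD of 3 libraries in black. EPHA2 is raised under MS275, MPP and rotenone, PLXNA2 and EPHA4 under MS275 and ziram, NDNF is lowest under ziram (1.76 to 2.71 CPM) and EFNA3 under MS275 (7.64 to 9.40 CPM).

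Direct tests compared toxicants with each other. MPP and paraquat, both pyridinium compounds at 5 µM, differed in 6 of 70 members, all higher under MPP, against 11% of all genes (6.04% higher and 4.94% lower). EPHA2 was at 6.15, 7.52 and 6.24 CPM under paraquat, and the MPP libraries were 3.32-fold higher (log2 1.73, SE 0.19, edgeR adjusted p = 3.25e-07). The other 5 were 4 netrin receptors and a semaphorin: UNC5B (log2 1.02), SEMA6B (0.55), NEO1 (0.54), UNC5C (0.50) and DCC (0.40). The DCC call ended without any of the 6 libraries except MPP replicate 1, with edgeR adjusted p up to 0.169 without MPP replicate 3, and the SEMA6B call ended without MPP replicate 1 (0.0805), MPP replicate 2 (0.15), paraquat replicate 2 (0.107) or paraquat replicate 3 (0.0986). Both were also lost with library totals as the only scaling (0.118 and 0.0605). EFNA1 was not called between them (log2 0.56, 95% interval 0.14 to 0.99, edgeR adjusted p = 0.0773). Other tools also called members lower under MPP. DESeq2 called 8 higher and 3 lower, the latter being SEMA3B (adjusted p = 0.023), PLXNB2 (0.0352) and PLXNB1 (0.0448). In limma-voom 8 were higher and 2 lower, SEMA3B (adjusted p = 0.047) and PLXNB2 (0.0454). SEMA3B was also called lower in edgeR with the median-ratio scaling (0.0442).

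MS275 and MPP, at the same 5 µM, differed in 45 of 70 members, against 50.8% of all genes. Under MS275, 36 were higher (51.4% of members, where 24.9% of all genes were higher) and 9 were lower (12.9%, where 25.9% were lower). EPHA2 was 2.40-fold higher under MS275 than under MPP (log2 1.26, SE 0.18, edgeR adjusted p = 7.85e-07), and UNC5B 3.24-fold higher (log2 1.70, SE 0.19, edgeR adjusted p = 1.29e-08). EPHA4 showed the largest difference among members above 1 CPM, at 27.4, 34.3 and 29.9 CPM under MS275 and 7.99, 6.31 and 9.03 CPM under MPP (log2 1.98, SE 0.15, edgeR adjusted p = 6.81e-12). EFNA3 was lower under MS275 (log2 -1.77, SE 0.11, edgeR adjusted p = 2.37e-13). SEMA3B, which was higher under MS275 and lower under MPP than in the vehicle, was at 40.9, 38.4 and 27.7 CPM under MS275 and 17.3, 14.2 and 10.9 CPM under MPP (log2 1.33, SE 0.18, edgeR adjusted p = 3.85e-07). The EFNA1 difference was 0.01, with a 95% interval of -0.41 to 0.42. NEO1 was lower under MS275 than under MPP (log2 -0.28, edgeR adjusted p = 0.00393), a call that was lost with library totals as the only scaling (0.0838).

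Rotenone at 1 µM and MPP at 5 µM were set side by side at unequal doses. No member was called by edgeR, against 6.74% of all genes, with 8 members and 4178 genes at an unadjusted p under 0.05. DESeq2 called 3 members and 1770 of all genes. The EPHA2 difference, rotenone against MPP, was -0.01 on the log2 scale, with a 95% interval of -0.39 to 0.36. UNC5B was lower under rotenone by an amount that did not pass the edgeR test (log2 -0.65, 95% interval -1.07 to -0.23, edgeR adjusted p = 0.0521). It was among the 3 members that DESeq2 called (adjusted p = 0.036), with EPHA3 higher (0.033) and EPHA6 lower (0.0435).

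**Figure D5:**
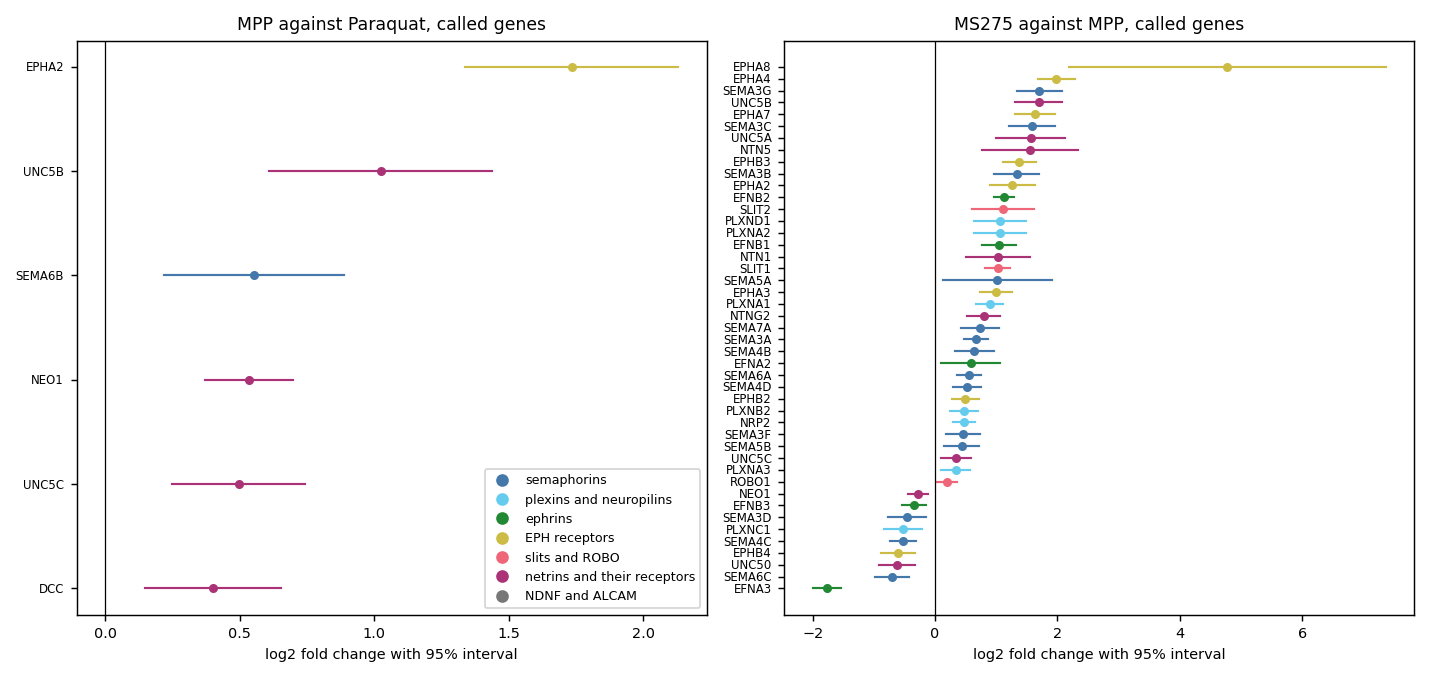
Members called in the direct tests of MPP against paraquat (left) and MS275 against MPP (right), with log2 fold changes (points) and 95% intervals; colours mark families. EPHA2 leads on the left at 1.73, and EFNA3 is lowest on the right at -1.77; EPHA8, on the right, rests on 62 reads under MS275 and 2 under MPP.

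Other genes of the pathway were read from 2 lists. Of 40 other guidance cues, receptors and adhesion partners, 38 were tested. Under MS275, 19 of them were higher (20.1% of all genes) and 3 lower (23%), with a median log2 fold change of 0.322. The chemokine CXCL12, an attractive cue for migrating neurons, rose from 7.06 ± 0.17 to 42.5 ± 4.7 CPM under MS275, a 6.01-fold change (edgeR adjusted p = 1.49e-12), and its scavenger receptor ACKR3 rose 3.69-fold. CXCL12 also rose 2.08-fold under MPP (edgeR adjusted p = 0.000122) and 1.99-fold under rotenone (edgeR adjusted p = 0.000773). ACKR3 and RGMA, a repulsive ligand of neogenin, rose under MPP by 0.79 and 0.58 on the log2 scale, and RGMA completed the 3 of 38 that were higher there (5.77% of all genes). Under rotenone 2 were higher and 2 lower (2.76% of all genes in each direction), the latter being the GDNF receptor RET (log2 -0.66) and RGMB (log2 -0.57). The CXCL12 receptor CXCR4 was the 1 of 38 that rose under ziram, where 0.408% of all genes did (log2 0.40, edgeR adjusted p = 0.0389), and CNTN2, an axonal adhesion molecule, the 1 of 38 called under methylmercury, where 0.286% of all genes were, and was lower (log2 -0.42, edgeR adjusted p = 0.0294).

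The second list held 48 intracellular effectors of guidance receptors, all tested. Under MS275, 12 were higher and 11 lower (20.1% and 23% of all genes), with a median log2 fold change of 0.0262. The exchange factor ARHGEF11, which links class B plexins to RhoA, fell by 0.72, and NGEF, the ephexin that acts below EPHA receptors, rose by 0.87. Under MPP, 6 were higher and 2 lower (5.77% and 5.02% of all genes), with CHN1, the chimaerin that acts below EPHA4, higher by 0.54 and MICAL3 lower by 0.48. Under rotenone 2 were higher and 2 lower (2.76% of all genes in each direction), with NGEF at -0.66 and MICAL3 at -0.60. None was called under paraquat, ziram, 6-HD or methylmercury by edgeR.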

How the data were processed

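Gene counts were measured in 24 libraries, 3 for each of 8 groups, with the groups taken from the labels. Per the submitters' processing notes, the authors aligned reads with STAR to GRCh38 and counted them per gene with HTSeq; the sources used here do not give tool versions, the annotation or the strand setting. Raw counts were used as the authors deposited them, and a second deposited matrix, normalized with DESeq, was not used. Every column had a sample (0 without one), and 266 identifiers without a gene name held 0.00492% of the counts. These identifiers could not match the name rule, and they went through the expression filter like all other genes.

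Names and exons came from GENCODE 29 by identifier, and promoters from RefSeq (GRCh38.p14). The counts were fitted with edgeR 4.0.16 in R 4.3.3 with TMM scaling (factors 0.919 to 1.04), the default filter on low counts (18852 genes kept), 1 coefficient per group over all 24 libraries and 16 residual degrees of freedom. Quasi-likelihood F tests were adjusted with Benjamini-Hochberg over all genes in each comparison, at 0.05. CPM are counts per megaread of the scaled total. The script was tested on simulated data.

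Each library pair with the same number was checked over 10408 genes for shared deviations from the group means. For MS275 and DMSO the correlations were 0.166, 0.189 and 0.228, and those between unlike numbers were at most 0.00124. In no other comparison with DMSO were all 3 above 0.1, and for ziram and methylmercury all 3 were below 0. The values are low and the labels do not give a pairing, so whether the numbers pair these libraries is not known. With the number as a block over all 24 libraries, 45 members were called under MS275, all among the 46.

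The members and gene lists were chosen with earlier results of these data known. All members may be named; beside them, up to 4 called genes of each other list and comparison were named by the size of the change, at 1 CPM or more in the higher group. Alternatives were other scalings, filters, a replicate block, fits on the compared groups alone, limma-voom (limma 3.58.1), DESeq2 1.42.0 and leaving out each library. Counts limit precision most for members with few reads.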

Additional observations from a re-analysis of the deposited data

Results flagged for a closer look

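SEMA6A-AS1, an antisense name that the selection of genes leaves out, was above the vehicle under MS275. It was at 0.441 ± 0.11 CPM in the vehicle and 1.5 ± 0.92 CPM under MS275 (n = 3 each), a log2 fold change of 1.70 (edgeR adjusted p = 0.0373). Of its exon bases, 9.47% are shared with SEMA6A on the opposite strand, where they make up 2.45% of the exon bases of SEMA6A. Over the 24 libraries it had 368 reads and SEMA6A had 53619, and SEMA6A rose by 0.53 in the same comparison. Without a stated strand setting, reads over those bases cannot be told apart.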

How the results depend on the processing

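Of 115 calls on single members over the 10 comparisons, 81 held under every alternative, none reversed, and 33 were lost when 1 library was left out. For MS275 against DMSO the count of called members stayed between 36 and 41 without 1 library (46 with all) and between 44 and 49 under the other alternatives; for MS275 against MPP it was 41 to 47 without 1 library. The median-ratio scaling moved the median log2 fold change of all genes under MS275 from 0.0358 to 0.0902, with 39 members higher and 6 lower. Some members outside the 46 were called by other tools. DESeq2 called NEO1 (adjusted p = 0.0285), UNC5D (0.0314), PLXNA3 (0.0466) and ROBO1 (0.0499) higher. In limma-voom, UNC5CL was higher (adjusted p = 0.0489) and NDNF lower (0.0324).

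Smaller counts moved more. With the 2 compared groups fitted alone, 13 members were called under MPP, 11 under ziram, 1 under rotenone and 14 between MPP and paraquat. Calls over all genes moved in the same direction, to 3983, 586, 211 and 3541 in this order. The main fit had 2034, 100, 1041 and 2070. limma-voom called 3 under rotenone and 10 between MPP and paraquat, and DESeq2 called 11 between MPP and paraquat and 3 between rotenone and MPP. Over all genes, these were 988 and 2460 calls by limma-voom and 2637 and 1770 by DESeq2. With the replicate number as a block, 3 were called under rotenone (EPHA7 and SEMA4F lost, adjusted p = 0.066 and 0.0563 in edgeR), UNC5D was lost under ziram (0.0766), and no other count of calls moved by over 1.5 times. The block called 890 of all genes under rotenone and 81 under ziram. Between rotenone and MPP, library totals alone gave 1, no filter on low counts 3, and a filter of 1 CPM in 3 libraries 1. These settings called 1347, 1270 and 1307 of all genes. Leaving out 1 library gave 3 to 5 calls under MPP (3 without DMSO replicate 1 or MPP replicate 2), 3 to 5 under ziram (3 without ziram replicate 1), 1 to 10 under rotenone (1 without DMSO replicate 1 or 2, 10 without rotenone replicate 1), 4 to 8 between MPP and paraquat and 0 to 2 between rotenone and MPP. Over all genes, calls ran from 1142 to 1430, 40 to 74, 483 to 1616, 1157 to 1476 and 522 to 2177 in this order. The cause of these shifts was not tested. Paraquat, 6-HD and methylmercury had 0 called members under every alternative run.

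Depth limits the members with few reads: EPHA8 had 10 reads over the vehicle libraries, PLXNB3 20 and UNC5CL 21, and a difference in them was detectable only if large. EPHA1, ROBO4 and SLIT3 were not testable. The 3 libraries of a group come from 1 line at 1 dose and 1 time.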
